A study of Mus musculus with 6 samples.

Results

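Collagens and other extracellular matrix proteins were followed at the RNA level in B16 melanoma, a mouse melanoma line that grows in mice of its own strain. The 40 genes were a list covering fibrillar and other collagens, basement membrane proteins, matrix glycoproteins, proteoglycans and collagen crosslinkers. This list and those used further below were chosen with earlier results of these data known. A gene was followed where the array platform's annotation gave a probe for it that was detected on 3 or more of the 6 arrays, with a detection p-value under 0.05. This held for 32 of the 40, among 10523 genes tested in all, and 31 of the 32 were detected on all 6 arrays. Col6a3, Col12a1, Lamb1, Fbn1, Postn, Spp1, Vcan and Loxl2 had no named probe among those of the authors' table and were not analysed here. Their absence does not show that they were undetected, and the set of all genes tested was limited in the same way.

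C57BL/6 mice were inoculated with 400000 B16 cells, and tumors were taken at day 8 and freed of adjacent normal tissue. The comparison was of 3 large tumors (70 to 80 mm2) with 3 small tumors (10 to 20 mm2), with 1 array per tumor sample. All mice carried the same cell line, and the labels give no drug treatment, sex or age. They number the replicates 1 to 3 in each group without saying how mice or inoculations were shared, so a p-value reflects only how far these samples spread, which may be technical. RNA came from whole tumors, in which fewer cells of a type and less RNA per cell cannot be told apart.

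The extracellular matrix is a scaffold of secreted proteins. Fibrillar collagens form its cables, network collagen IV and laminins form the sheets under blood vessels and epithelia, and glycoproteins such as fibronectin link cells to both. In tumors much of it is made by fibroblasts and vessel cells, and tumor cells add some of their own.

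Array medians of the raw signal lay at 117 to 128 for large and 104 to 115 for small tumors, and small replicate 1 was the dimmest array, with 17310 probes detected against 18331 to 19771 on the others. Values below are background-corrected, quantile-normalized log2 intensities, and a log2 fold change is the large mean minus the small mean, given with its standard error (SE) from limma. A gene was called at a Benjamini-Hochberg adjusted p under 0.05 over all 10523 genes. Markers of melanoma cells were present in every tumor. All 10 genes of that list were detected, 0 were called, and their summed linear intensity ran from 115134 to 122078 in large tumors and from 104766 to 111822 in small ones. All 10 had positive log2 fold changes (49.9% of all genes did), with a median of 0.14. Groups were apart upwards in 3 (30%, against 16.1% of all genes). By array, the median of their gene-centred values was 0.041, 0.11 and 0.13 for large replicates 1 to 3. It was -0.18, -0.062 and -0.095 for the small ones, so the size groups were apart.

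Most matrix genes did not separate large from small tumors, and 3 rose in large tumors. These were Hmcn1, which encodes the giant glycoprotein hemicentin 1, Col2a1, the fibrillar collagen best known from cartilage, and Fn1, fibronectin. They went up by 1.41, 1.09 and 1.00 on the log2 scale, and no other matrix gene differed by 2-fold at its probe of highest mean. Called genes thus made up 9.38% of the 32, where 2.47% of all genes were called in either direction, 0.789% as higher and 1.68% as lower. Because the list was chosen with earlier results known, these shares describe it and test nothing. In all, 25 of the 32 had a positive log2 fold change and 7 a negative one, with a median of 0.16, against a median of -0.00096 and 49.9% positive over all genes tested. The groups did not overlap in 6 of the 32, with 5 higher in large tumors (15.6%) and 1 lower. Over all genes the groups were apart in 29.6%, with large tumors higher in 16.1% and lower in 13.6%, so matrix genes were apart upwards about as often as other genes. At an unadjusted p under 0.05 (limma) 5 were higher and 1 lower, against 12.3% and 10.2% of all genes. With median scaling in place of quantile normalization 30 were positive, with all genes at a median of 0.34 and the matrix genes 0.23 above that.

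**Figure D1:**
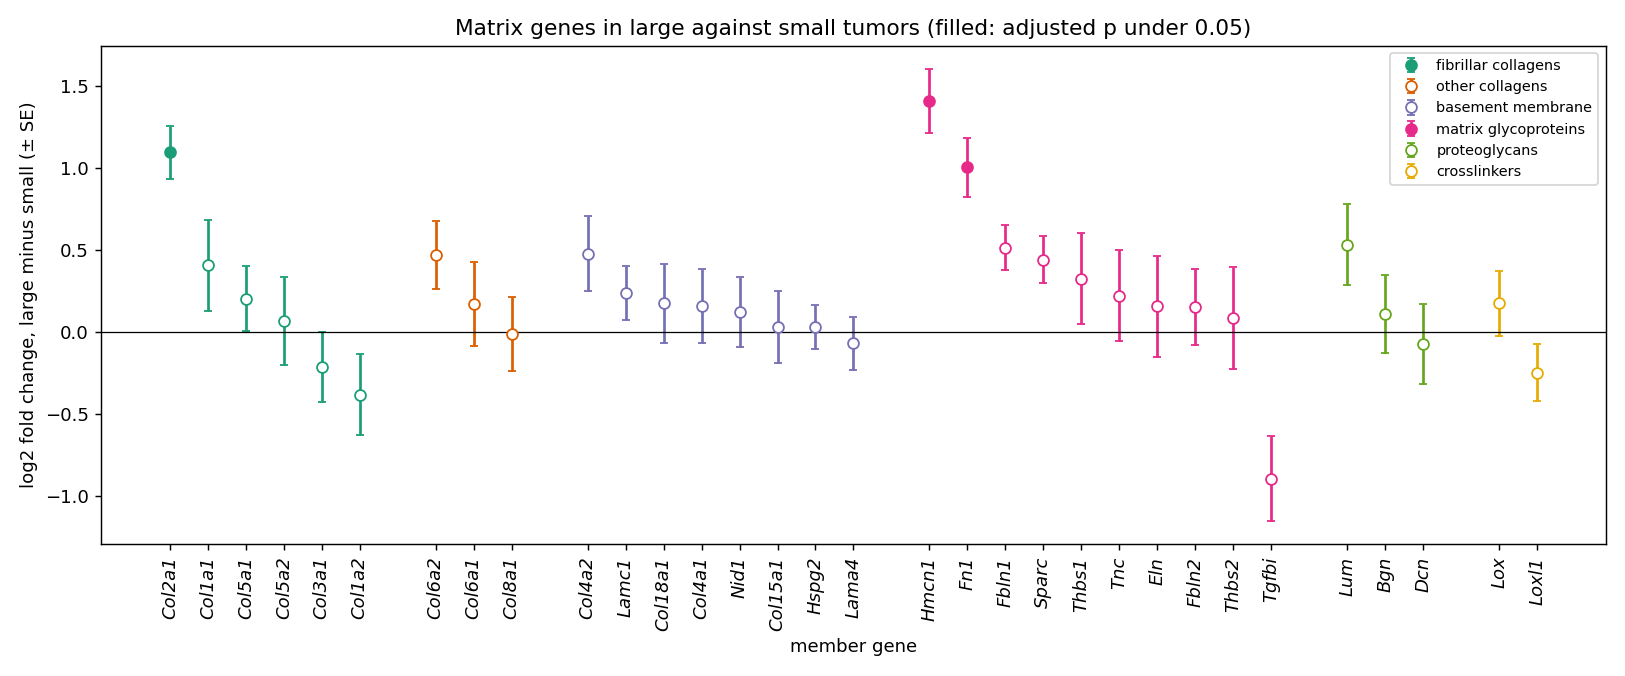
Log2 fold change (large minus small tumors, vertical axis) of the 32 matrix genes, grouped by role along the horizontal axis. Points are estimates, bars the SE (n = 3 per group), and filled points passed an adjusted p under 0.05. Col2a1, Hmcn1 and Fn1 stand at 1.00 or above, and Tgfbi is the lowest at -0.89.

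The calls needed nearly all arrays. Without large replicate 1, 2 or 3, or small replicate 1 or 3, 0 matrix genes were called (limma, with 6, 6, 9, 7 and 9 at an unadjusted p under 0.05), and without small replicate 2 the same 3 were. The differences stayed about as large with 1 array left out, at 1.26 to 1.53 for Hmcn1, 0.99 to 1.23 for Col2a1 and 0.83 to 1.11 for Fn1. Over all genes, the calls numbered 260, and 0 to 300 with 1 array left out.

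Hmcn1 showed the largest difference. Its main probe, the one of highest mean (ILMN_1245853), read 7.79, 7.90 and 8.30 in large replicates 1 to 3 and 6.28, 6.83 and 6.65 in small replicates 1 to 3. Every large tumor was above every small one, by 0.95 between the nearest pair. The difference was 1.41 ± 0.20 (SE, n = 3 per group), or 2.66-fold, with a limma adjusted p of 0.0324. The other detected probe of Hmcn1 (ILMN_2926311) was near the detection limit, seen on 2 of 3 arrays in each group, and did not share this pattern. It read 5.31, 4.69 and 5.48 in large tumors and 4.90, 6.06 and 5.97 in small ones, which overlap. Its log2 fold change was -0.48 ± 0.35 (adjusted p = 0.461 over all probes, limma), and the mean of both probes was not called (0.47, adjusted p = 0.336). The promoter of Hmcn1, the gene with the largest rise, is shown as the 300 bases at chr1:150993386-150993685 on the minus strand (GRCm38.p6, RefSeq), with capitals for CCAAT boxes on either strand.
Hmcn1: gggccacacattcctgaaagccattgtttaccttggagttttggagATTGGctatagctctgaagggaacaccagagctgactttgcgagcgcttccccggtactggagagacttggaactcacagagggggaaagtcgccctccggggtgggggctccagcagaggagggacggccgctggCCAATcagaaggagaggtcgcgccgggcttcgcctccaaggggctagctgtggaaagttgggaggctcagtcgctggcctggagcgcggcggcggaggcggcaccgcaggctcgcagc

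Col2a1 was called with each of its 3 detected probes. The main probe (ILMN_1246054) read 7.88, 7.53 and 7.67 in large tumors and 6.39, 6.87 and 6.53 in small ones. The groups did not overlap, and the spread within each (SD 0.18 in large, 0.25 in small, n = 3) was small against the difference of 1.09 ± 0.16, or 2.14-fold (limma adjusted p = 0.0355). The other probes gave 0.88 ± 0.16 and 0.82 ± 0.14 (adjusted p = 0.0414 and 0.0392 over all probes, limma), and groups were apart in both. The probe at 0.82 was detected in 3 large and 2 small tumors. In small tumors it read 5.17, 5.50 and 5.49, near the detection limit. Detection in small tumors alone would not have passed it through the filter, so it adds less than the others. With the authors' processed values, the gene was at 1.18 and not called (adjusted p = 0.0549). Other genes typical of cartilage did not pass the test. In a list of 11 chondrocyte genes 5 were tested, 0 were called and the median was 0.12, with 3 positive and 2 negative values. They were Hapln1, a link protein of cartilage, at 0.85 ± 0.43, the collagen IX chains Col9a2 and Col9a1 at 0.33 ± 0.16 and 0.12 ± 0.32, Col11a2, a collagen XI chain, at -0.20 ± 0.22 and Sox9, the lineage's transcription factor, at -0.44 ± 0.24. Groups were apart for Col9a2 alone of these 5, with large tumors higher. Col9a2 read 4.60 to 5.39 and Col9a1 4.41 to 5.63 across the arrays, about as low as the second Hmcn1 probe, which limits what they show. Aggrecan (Acan) and Comp of that list were not among the tested genes.

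Fn1 encodes fibronectin, which binds collagen and cell-surface integrins. Its main probe (ILMN_2595714) read 9.41, 9.73 and 9.55 in large tumors and 8.78, 8.21 and 8.70 in small ones. All large tumors were above all small ones, and the difference was 1.00 ± 0.18, or 2.00-fold (limma adjusted p = 0.0443). A second probe was detected in 3 large tumors and 1 small tumor. It thus passed the detection filter through the large group, and its value of 0.41 ± 0.15 (adjusted p = 0.174 over all probes, limma) adds nothing on direction. The mean of both probes was at 0.70 (adjusted p = 0.0536).

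**Figure D2:**
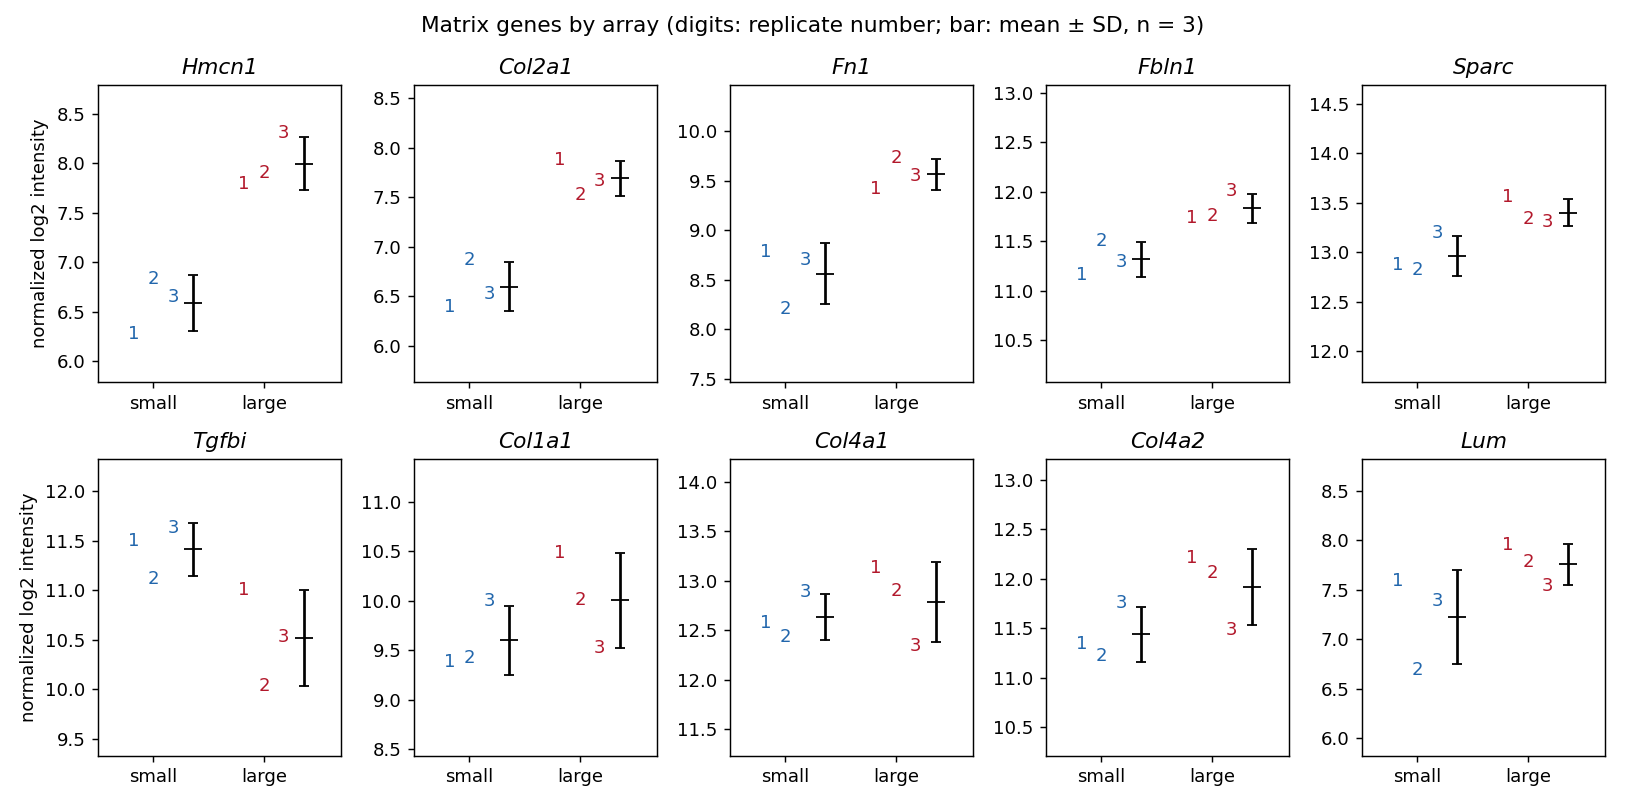
Normalized log2 intensity (vertical axes, each spanning 3 log2 units) of 10 matrix genes in small and large tumors. Digits are replicate numbers at their values, and bars beside them give the mean ± SD (n = 3). Large and small tumors are apart for Hmcn1, Col2a1, Fn1, Fbln1, Sparc and, with small above large, Tgfbi, and they overlap for Col1a1, Col4a1, Col4a2 and Lum.

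Of the 5 other fibrillar collagens, none passed the test, and Col1a1 and Col1a2, whose chains build collagen I together, had opposite signs. Col1a1 read 10.49, 10.01 and 9.52 in large tumors and 9.38, 9.42 and 10.00 in small ones, and Col1a2 7.54, 7.02 and 6.67 against 7.57, 7.13 and 7.68. The groups overlapped for both. Their log2 fold changes were 0.41 (95% interval -0.26 to 1.07) and -0.38 (95% interval -0.97 to 0.21). Col3a1, which forms fibrils with collagen I, was at -0.21 ± 0.21, and its second probe at 0.33 ± 0.26. Col5a1 and Col5a2, chains of the collagen V that starts fibrils, were at 0.20 ± 0.20 and 0.066 ± 0.27. None of these intervals reached a doubling except that of Col1a1.

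Among the other collagens 0 of 3 were called. Col6a2, a chain of the microfibrillar collagen VI, had the smallest p with 8.85, 8.85 and 8.34 in large tumors and 8.02, 8.05 and 8.56 in small ones. Only large replicate 3 fell inside the range of the small tumors, and the difference was 0.47 ± 0.21 (limma adjusted p = 0.242), while a second probe gave -0.013 ± 0.13. Col6a1, its partner chain, was at 0.17 ± 0.26, and Col8a1, a short-chain collagen of vessel walls, was at -0.013 ± 0.22.

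Of the basement membrane genes 0 of 8 were called, with a median of 0.14. Col4a1 and Col4a2, the main collagen IV chains, followed the same order from tumor to tumor, as did 10 other matrix genes. Col4a1 read 13.13, 12.90 and 12.34 in large tumors and 12.57, 12.43 and 12.89 in small ones, and Col4a2 12.21, 12.06 and 11.48 against 11.35, 11.22 and 11.75. Both ran from large replicate 1 down to 3, and from small replicate 3 through 1 to 2, and both overlapped between groups. The differences were 0.16 ± 0.23 and 0.48 ± 0.23 (limma adjusted p = 0.728 and 0.271). These neighbouring genes are known to be read in opposite directions from a shared promoter, which is why both windows are shown. They lie at chr8:11312777-11313076 on the minus strand for Col4a1 and chr8:11312555-11312854 on the plus strand for Col4a2 (GRCm38.p6, RefSeq), and share 78 bases. Capitals mark CCAAT and GGGCGG boxes on either strand.
Col4a1: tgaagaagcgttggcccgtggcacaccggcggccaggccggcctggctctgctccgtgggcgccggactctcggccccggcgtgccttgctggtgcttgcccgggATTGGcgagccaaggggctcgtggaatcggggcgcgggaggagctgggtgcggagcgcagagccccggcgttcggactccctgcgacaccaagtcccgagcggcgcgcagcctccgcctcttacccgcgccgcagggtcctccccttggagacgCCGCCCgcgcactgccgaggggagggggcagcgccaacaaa
Col4a2: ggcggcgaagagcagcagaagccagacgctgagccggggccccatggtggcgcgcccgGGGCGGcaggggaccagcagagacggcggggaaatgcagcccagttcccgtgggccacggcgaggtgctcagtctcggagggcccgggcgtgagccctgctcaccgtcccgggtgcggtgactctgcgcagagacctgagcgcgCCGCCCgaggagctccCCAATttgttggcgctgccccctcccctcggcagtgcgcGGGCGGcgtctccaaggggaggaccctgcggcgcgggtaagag

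Promoter windows of 300 bases, from 250 before to 50 after a gene's start, were found in RefSeq tables for 20 of the 32 genes (24 windows). GGGCGG, the GC box, was found on either strand in 16 of 24 windows (66.7%), against 35.7% of all 32851 windows, and the median GC content was 60.7% against 52.7%. CCAAT was in 7 of 24 (29.2%, against 37.4% of all) and TATAAA in 4 (16.7%, against 13.6%). Windows of the same gene overlap for Tnc, Col6a2 and Fbln1. Both Tnc windows hold TATAAA and GGGCGG, so these counts are of windows and exceed counts of genes. The only GGGCGG of the Col4a1 window lies in the bases shared with Col4a2, so that site is counted for both genes. Among the called genes only Hmcn1 had a window, as Col2a1 and Fn1 had none. TGANTCA was in 1 (4.17%, against 7.81%) and TGACGTCA in 0 (1.79% of all). The motifs do not overlap each other in the windows printed.

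Other basement membrane genes gave small differences. Lamc1, the laminin gamma 1 chain, was at 0.24 ± 0.16, and its second probe had groups apart at 0.56 ± 0.16 (adjusted p = 0.0967 over all probes, limma). Nid1, nidogen 1, which bridges laminin and collagen IV, was at 0.12 ± 0.21, and its second probe pointed down with groups apart at -0.54 ± 0.22 (adjusted p = 0.196). Col18a1, the source of endostatin, was at 0.17 ± 0.24 and Col15a1, a relative of it, at 0.029 ± 0.22. Hspg2, the heparan sulfate proteoglycan perlecan, had the smallest SE of the 32, at 0.029 ± 0.13 (95% interval -0.29 to 0.35). Lama4, the laminin alpha 4 chain of vessels, was at -0.070 ± 0.16.

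The matrix glycoproteins held 2 of the 3 called genes, or 20% of the 10 tested, against 0.789% of all genes called higher. Of the 10, 9 had positive values (49.9% of all genes did), with a median of 0.27. Groups were apart with large tumors higher in 4 (40%) and lower in 1, against 16.1% and 13.6% of all genes. Besides Hmcn1 and Fn1, groups did not overlap for 3 genes, none of them called. Fbln1, fibulin 1, which binds fibronectin and basement membranes, read 11.74, 11.75 and 12.00 in large tumors and 11.16, 11.51 and 11.29 in small ones. Its difference was 0.51 ± 0.14 (limma adjusted p = 0.0982). All 4 of its probes were higher in every large tumor. One of them (ILMN_2728985) read 8.18, 8.39 and 8.64 against 7.29, 7.62 and 7.18, and passed the test with 1.04 ± 0.17 (adjusted p = 0.0371 over all probes, limma), while the other 3 lay between 0.43 and 0.51. Of all probes tested, 2.91% were called.

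Sparc, osteonectin, a collagen-binding protein, read 13.56, 13.34 and 13.30 in large tumors and 12.88, 12.82 and 13.20 in small ones. The groups were apart by 0.10 at the nearest, with a difference of 0.44 ± 0.14 (limma adjusted p = 0.143). A second probe gave 0.41 ± 0.17 and another, with overlapping groups, -0.16 ± 0.14. Tgfbi, a secreted adhesion protein induced by TGF-beta, was the one gene with every small tumor above every large one. It read 11.00, 10.03 and 10.52 in large tumors and 11.50, 11.11 and 11.62 in small ones. The difference was -0.89 ± 0.26 (95% interval -1.51 to -0.28, limma adjusted p = 0.117), and its second probe was at -0.56 ± 0.24 with overlapping groups. Macrophage markers, 12 of 14 tested, had negative log2 fold changes in all 12. Of these 1 was called lower (8.33%, against 1.68% of all genes), Aif1 at -1.60 ± 0.25. Their summed linear intensity was 6676 to 9331 in large and 8544 to 13822 in small tumors, and their part in the Tgfbi difference was not tested.

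The remaining glycoproteins overlapped between groups. Tnc, tenascin C of healing and tumor stroma, was at 0.22 ± 0.28, and the thrombospondins Thbs1 and Thbs2, regulators of vessel growth, were at 0.33 ± 0.28 and 0.085 ± 0.31. Eln, elastin, was at 0.16 ± 0.31 and Fbln2, fibulin 2, at 0.15 ± 0.23.

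Proteoglycans and crosslinkers gave 0 calls among 3 and 2 tested genes. Lum, lumican, which spaces collagen fibrils, had the smallest p of the proteoglycans, with 7.95, 7.77 and 7.53 in large tumors and 7.59, 6.69 and 7.38 in small ones. Only small replicate 1 reached the range of the large tumors, and the difference was 0.53 ± 0.25 (limma adjusted p = 0.257). Bgn, biglycan, was at 0.11 ± 0.24 and Dcn, decorin, at -0.075 ± 0.24. Loxl1, a relative of lysyl oxidase tied to elastic fibres, read 10.19, 9.91 and 9.87 in large tumors and 10.49, 9.93 and 10.31 in small ones. Its groups overlapped, at -0.25 ± 0.17 (limma adjusted p = 0.437). Lox, lysyl oxidase, which crosslinks collagen and elastin, was at 0.17 ± 0.20.

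**Figure D3:**
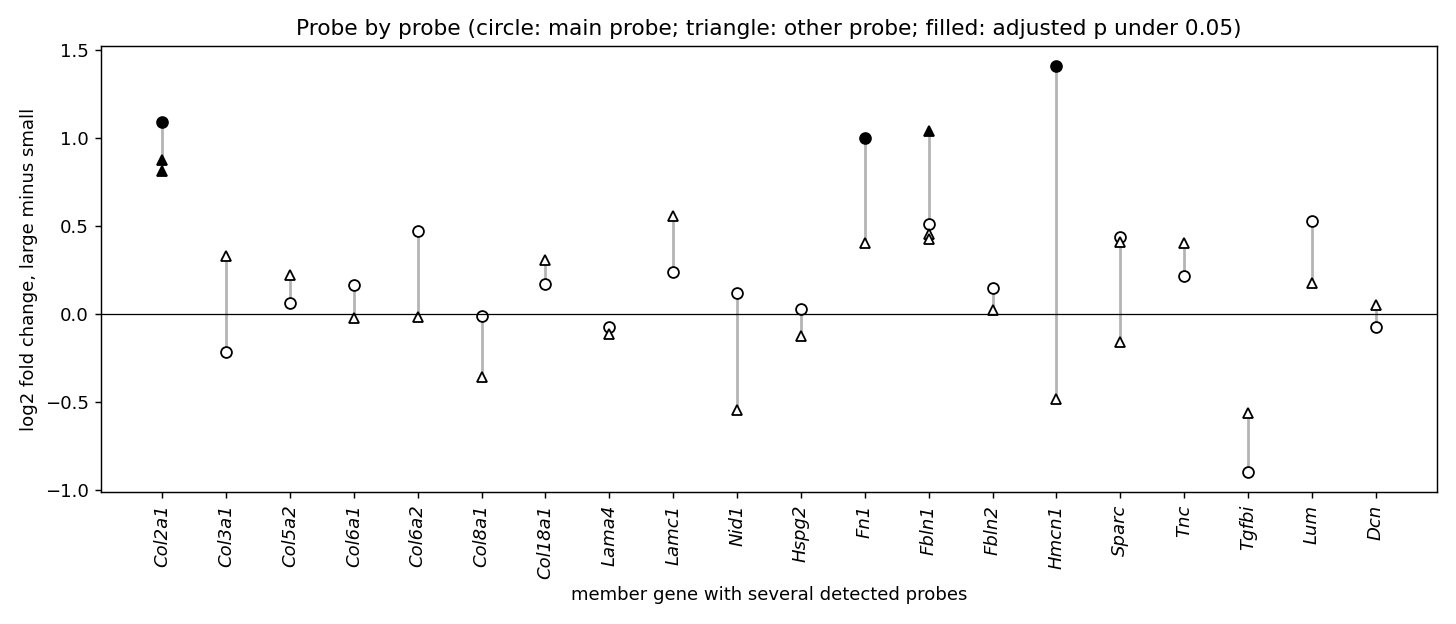
Log2 fold change (large minus small, vertical axis) of every detected probe of the 20 matrix genes with several probes. Circles are the main probe of a gene and triangles the others, and filled symbols passed an adjusted p under 0.05 over all probes. The 3 Col2a1 probes lie together between 0.82 and 1.09, whereas the 2 Hmcn1 probes lie on opposite sides of 0.

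Probes of a gene did not always point the same way. The 32 genes had 56 detected probes, and 12 genes had 1 probe. Of the 20 with several, the sign was shared in 12 and differed in 8. The 8 were Col3a1, Col6a1, Col6a2, Nid1, Hspg2, Hmcn1, Sparc and Dcn, named after their values were seen. In all, 6 of the 56 probes, from 4 genes, were called, all of them higher in large tumors, where 1.28% of all probes were.

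Matrix genes varied together within each size group. In 28 of the 32 genes large replicate 1 was the highest of the large tumors, and in 20 small replicate 3 was the highest of the small ones, where 32.3% and 26.2% of all genes had these arrays highest. Both held in 19 genes, and in 10.8% of all genes. At the low end, large replicate 3 was lowest for 23 genes and small replicate 2 for 23. The exceptions among large tumors were Fn1, highest in replicate 2, and Fbln1, Hmcn1 and Eln, highest in replicate 3. The median of the gene-centred values of the 32 genes was 0.39, 0.058 and -0.22 in large replicates 1 to 3 and -0.100, -0.33 and 0.14 in small ones, so the array medians of the size groups overlapped. The range within large or within small tumors was as wide as 1.04 for Thbs2 and 1.03 for Eln. In 27 of the 32 genes at least 1 of these ranges exceeded the difference between the groups. The share of all genes with this was not computed, so the count is not particular to matrix genes. The median log2 fold change of the matrix genes depended on single arrays. It was 0.16 with all arrays and -0.015 without large replicate 1, with 14 genes positive and 18 negative. It was 0.031 without small replicate 2, and 0.33 and 0.28 without large replicate 3 or small replicate 3. The array medians of these genes had an SD of 0.27 between replicates, wider than these shifts.

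**Figure D4:**
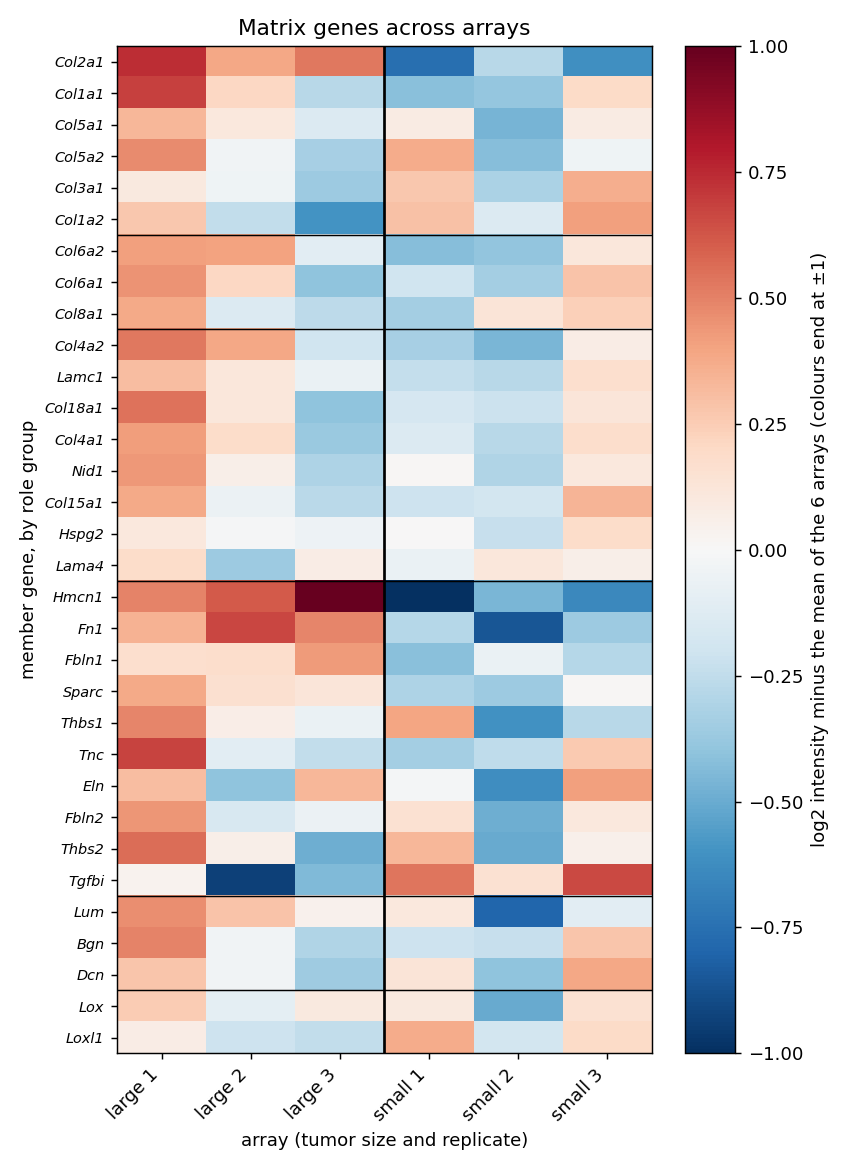
Matrix genes (rows, grouped by role) across the 6 arrays (columns). Colour is the log2 intensity minus the mean of all 6 arrays, red above and blue below, ending at 1 and -1. The column of large replicate 1 is above the mean for most collagens and basement membrane genes, while Col2a1, Hmcn1, Fn1 and Fbln1 separate the 3 large from the 3 small tumors.

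Marker genes of other cells moved with parts of this pattern. The fibroblast and pericyte list, all 17 genes tested, had array medians of 0.19, -0.16 and -0.24 in large tumors and 0.055, -0.088 and 0.18 in small ones. Endothelial markers, all 13 tested, had 0.20, 0.084 and -0.41 in large tumors and 0.097, -0.15 and 0.18 in small ones. Both were highest in large replicate 1 and small replicate 3 and lowest in large replicate 3 and small replicate 2 within their groups, an order that 12 of the 32 matrix genes had in full (2.97% of all genes). Neither list had a called gene. Their summed intensities overlapped between groups, at 9901 to 15787 against 12472 to 15309 for fibroblasts and 13097 to 17717 against 14318 to 18987 for endothelium, large against small. The fibroblast list had a median log2 fold change of -0.11, with 6 positive and 11 negative values. For endothelium the median was -0.087, with 4 positive and 9 negative, where 49.9% of all genes were positive. At an unadjusted p under 0.05 (limma) 0 fibroblast genes were higher and 4 lower, against 12.3% and 10.2% of all genes, and 0 endothelial genes passed. Among the 4 lower fibroblast genes, Des (-1.25 ± 0.25) is also counted in the skeletal muscle list below. Keratinocyte markers, 8 of 14 tested, ranged far more, from 2.66 in large replicate 1 to -2.72 in large replicate 3, and from 1.93 in small replicate 3 to -2.58 in small replicate 1. Their summed intensity was 424 to 41750 in large and 238 to 33264 in small tumors. Skeletal muscle markers, 15 of 16 tested, were called lower in large tumors in 12 cases (80%, against 1.68% of all genes). All 15 had groups apart with large tumors lower, against 13.6% of all genes, with sums of 12498 to 17856 against 37587 to 53168. The 6 of smallest p, Tnnt3, Ckm, Tnnc2, Myh1, Tnni2 and Tcap, had log2 fold changes of -2.39 to -1.83. Melanoma cell markers, with the values given above, were higher in every large tumor than in every small one by array median and by sum. The part of these cells in the matrix differences was not tested.

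**Figure D5:**
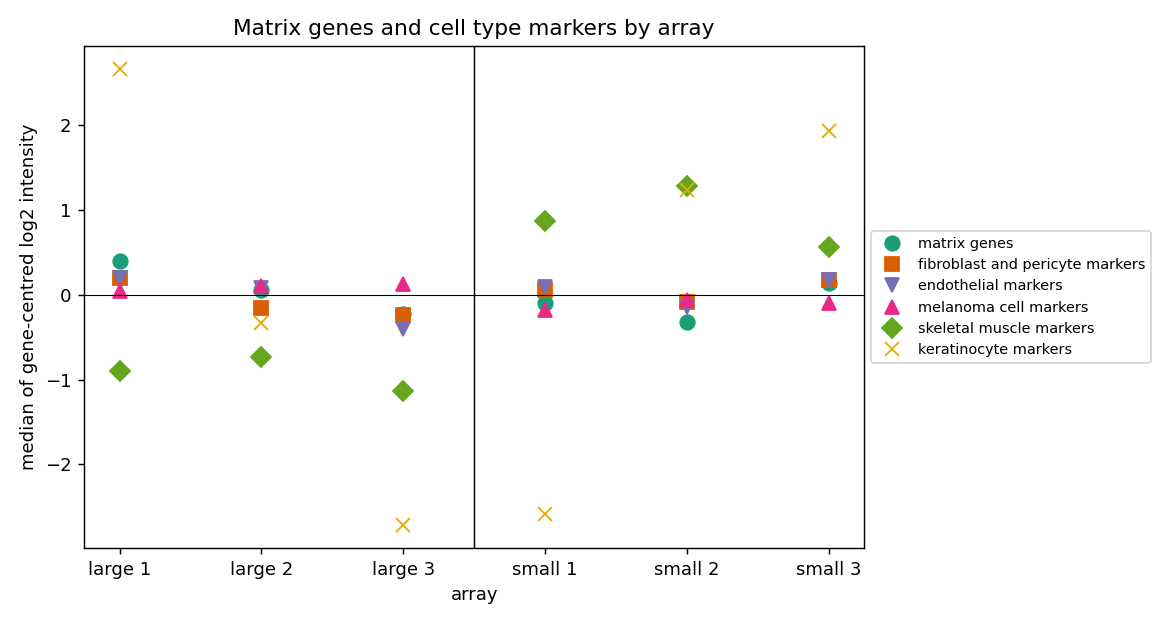
Median of gene-centred log2 intensities (vertical axis) of the 32 matrix genes and of 5 cell type marker lists on each array (horizontal axis). Matrix, fibroblast and endothelial medians stay between -0.41 and 0.39, keratinocyte markers run from -2.72 to 2.66, and only the skeletal muscle list puts all large tumors far below all small ones.

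Genes that make, export, bind or regulate the matrix were taken from further lists, also chosen with earlier results of these data known. In collagen synthesis and export, 2 of 26 tested genes (of 33 listed) were called higher, or 7.69%, against 0.789% of all genes. Called lower were 0, against 1.68% of all genes. The median was 0.30, and 23 values were positive (88.5%, against 49.9% of all genes). Mia3, which loads collagen into transport carriers at the endoplasmic reticulum, read 8.00, 8.42 and 8.51 in large tumors and 7.09, 7.51 and 7.28 in small ones. All large tumors were above all small ones, with a difference of 1.02 ± 0.18 (limma adjusted p = 0.0415). P3h1, a prolyl 3-hydroxylase of collagen, read 8.24, 8.45 and 8.64 in large tumors and 7.54, 7.83 and 7.67 in small ones. Its groups were also apart, at 0.76 ± 0.14 (limma adjusted p = 0.0479). Neither call held without large replicate 1, 2 or 3, or small replicate 3, where 0 of all genes were called higher. The groups did not overlap, with large tumors higher, in 11 of the 26 genes (42.3%, against 16.1% of all genes).

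Matrix receptors, integrins and syndecans among them, gave 0 calls in 25 tested genes (of 29), with a median of 0.16. At an unadjusted p under 0.05 (limma), 5 were higher and 2 lower. Over all genes 12.3% were higher and 10.2% lower at that p, which also stands beside the next list. The TGF-beta pathway, a main inducer of matrix genes, gave 0 calls in 16 tested genes (of 21), with 4 higher and 1 lower at an unadjusted p under 0.05 and a median of -0.0035. Among 31 tested genes of 56 further matrix genes 1 was called (3.23%, against 2.47% of all genes, so about as often) and the median was 0.14. It was Tgm2, transglutaminase 2, which crosslinks matrix proteins and fell. It read 10.00, 10.12 and 10.08 in large tumors and 11.19, 10.86 and 11.61 in small ones. Every large tumor was below every small one, with a log2 fold change of -1.15 ± 0.19 (limma adjusted p = 0.0399). This call did not hold without large replicate 1 or 3, where 0 of all genes were called.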

How the data were processed

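Total RNA of 6 tumors (100 ng each) was amplified, biotin-labelled and read on Illumina bead arrays with GenomeStudio, per the labels' protocols and the submitters' processing notes, with a version not given in the sources used here. Deposited signals are intensity, linear and not background-subtracted (lowest value on an array 84.2 to 98.4), with a detection p-value per probe, per the file headers. The authors also deposited their own processed intensity for 20346 of 45281 probes, in a table bounded below at 28.8, with array medians of 119.99 to 132.7. Its correction and normalization stay unknown. Each of its columns correlated best with its own array (r at least 0.946 across 15634 probes after centring, against at most 0.493).

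Signals were processed with neqc of limma 3.58.1 (R 4.3.3), offset 16, and 19120 probes detected on at least 3 arrays were kept. The platform annotation at hand covered only probes of the authors' table. It named 17300 of them with 1 symbol and 11 with several, and 3035 were unnamed. Symbols were checked by Entrez identifier in RefSeq (GRCm38.p6). The probe of highest mean stood for a gene. Groups were compared with lmFit and eBayes over all genes, and over all probes for probe values; the fit was tested on simulated data. An exact permutation test of 3 against 3 cannot go below 0.1 and was not used. No pair of arrays shared equal signals (0%). Full values are given for called genes, genes with an unadjusted p under 0.05 and groups apart, the gene of smallest p in each role group, and called genes of other lists; Col1a1, Col1a2, Col4a1 and the chondrocyte genes were added after their values were seen. Members and lists were chosen with earlier results of these data known. Alternatives covered normalization, filters, probe choice, prior, weights, a replicate block and each array left out.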

Additional observations from a re-analysis of the deposited data

How the results depend on the processing

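Hmcn1 was called in 12, Col2a1 in 11 and Fn1 in 11 of 18 alternatives, always higher in large tumors, with adjusted p-values (limma) of 0.00766 to 0.336, 0.0131 to 0.126 and 0.0131 to 0.172. Fbln1 was called by its main probe in 1 of 18, with the trended and robust prior, and by another probe with every probe on its own, and Sparc and Tgfbi in 0. The 3 called matrix genes became 1 with the mean of detected probes and 0 to 3 with 1 array left out. With median scaling in place of quantile normalization the median of all genes moved to 0.34 and that of the matrix genes to 0.57. The 260 calls over all genes (83 higher, 177 lower) became 162 with median scaling (96 higher, 66 lower), 404 with quantile normalization and no background correction (179 higher, 225 lower), 402 detected on all 6 arrays, 557 with every probe on its own, 656 with the trended and robust prior, 574 with array weights, and 0 to 300 with 1 array left out. With the replicate block 109 genes and 1 matrix gene, Hmcn1, were called. Same-numbered large and small samples had deviations correlated at -0.55, -0.067 and -0.45, and the labels do not say what a number marks, so samples were not treated as paired. Dim probes, such as the second of Hmcn1, limit what probe disagreement can show.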
